A study of Mus musculus with 24 samples.

Results

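Replication-dependent histone genes were taken as the genes whose symbol begins with Hist1h to Hist4h and whose mean was at least 1 normalized read count over the 24 libraries of the series. Of 70 genes with such a symbol, 61 reached this mean: 5 H1, 16 H2A, 17 H2B, 11 H3 and 12 H4 genes. They were 61 of the 20141 genes that were tested and of the 54658 genes in the table. Of the 9 genes below the mean, 5 had no read assigned to them in any library. The mean was at least 10 for 39 members and between 1 and 10 for the other 22. A member at a low level could reach the mean through 1 group alone.

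Core histones (H2A, H2B, H3 and H4) form the protein spool around which DNA is wound, and linker histones (H1) bind DNA where it enters and leaves that spool. Most of these proteins are made in S phase from clustered genes that have no introns, and the mRNA normally ends in a conserved stem-loop bound by Slbp rather than in a poly(A) tail. A minority of transcripts end further downstream at a polyadenylation signal, as is known for differentiating cells, and priming with oligo(dT) reaches only such tailed forms or internal runs of A.

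The series held 24 libraries from 12 mouse embryos. Dorsal telencephalon, the part of the embryonic brain that forms the cortex, was taken at E11.5 from 3 control and 3 mutant embryos and at E14.5 from 3 control and 3 mutant embryos. Cells of the disaggregated cortices of the same 6 E14.5 embryos were also cultured for 12 hours and for 24 hours. In this time they begin to form neurospheres. Controls were wild type for *Cep135*, which encodes a centriole protein, and mutants were Cep135 (-/-) in the labels, a germline allele described by the study as Δ8/Δ8 and made by CRISPR/Cas9, so that every cell of the embryo carried it; no group was given a drug. For the E14.5 cortex of mutant embryo 6, 1 label gives E11.5 and 2 labels give E14.5, and it was taken as E14.5. The 6 E14.5 embryos bear 1 name prefix and the E11.5 embryos other prefixes, so age and name prefix cannot be told apart. By title, E11.5 mutants 2 and 3 share the prefix of controls 2 and 3. By column name they bear a prefix that no control has. The title was used.

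The number of reads on genes was 4732781 to 11645213 per library, and the 61 members together had a normalized read count of 4800 to 12042 per library. Reads of *Cep135* overlapped between genotypes in every state (smallest adjusted p = 0.853 by limma), and since reads come from the 3′ end of the mRNA they do not check the deletion. The RNA gene *Gm42418*, which holds ribosomal RNA sequence, took 6.11% to 34.8% of the normalized counts. The E14.5 controls were all male, mutants 1 and 2 were female and mutant 6 was male. At E11.5, controls 1 and 3 and mutant 2 were male, and control 2 and mutants 1 and 3 were female. The tissue carried its defining markers *Emx1* and *Pax6*. In bulk RNA, fewer cells of a type and less RNA per cell cannot be told apart.

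Of the 61 members, 50 lie on chromosome 13, 7 on chromosome 3, 3 on chromosome 11 and 1 on chromosome 6 (GRCm38, GENCODE vM21). Annotation lists 59 as protein coding and 2, *Hist1h2al* and *Hist3h2bb-ps*, as processed pseudogenes. The histone stem-loop consensus of 16 bases was present in the annotated transcript of 41 members. A polyadenylation signal, AATAAA or ATTAAA, stood in the last 50 bases of 14 transcripts, and 12 of these held the stem-loop as well. The transcripts of 13 members ended within 3 bases of the stop codon, and 32 had a longer 3′ UTR without the signal at its end. Only 4 members had more than 1 exon.

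The stem-loops of the members with the highest levels are given here as DNA, with the 16 bases of stem and loop in capitals and 5 flanking bases on each side, because an mRNA that ends here has no tail to prime from. They were read from the annotated transcripts.
Hist1h1e: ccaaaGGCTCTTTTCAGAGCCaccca
Hist3h2a: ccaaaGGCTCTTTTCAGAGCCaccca
Hist3h2ba: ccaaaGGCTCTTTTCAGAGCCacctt
Hist2h2ac: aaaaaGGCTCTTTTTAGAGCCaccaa
Hist1h3d: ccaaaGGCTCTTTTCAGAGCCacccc
Hist1h3c: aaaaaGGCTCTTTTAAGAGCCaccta
Hist1h4i: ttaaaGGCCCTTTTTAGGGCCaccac
Hist1h4d: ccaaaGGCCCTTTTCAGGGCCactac
The annotated transcript ran on past the stem-loop for 1643 bases in *Hist3h2a*, 1153 in *Hist1h1e*, 770 in *Hist1h4d*, 752 in *Hist1h3d*, 330 in *Hist1h4i*, 169 in *Hist3h2ba*, 74 in *Hist1h3c* and 57 in *Hist2h2ac*. No stem-loop was found in the annotated transcripts of *Hist1h1a*, *Hist1h1b*, *Hist1h2bc* or *Hist2h2be*, of which *Hist1h1b* has no annotated 3′ UTR and *Hist1h1a* one of 48 bases.

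The ends with a polyadenylation signal are given for 5 members in stretches of 30 bases, with the signal in capitals.
Hist3h2ba: cataatggtattAATAAAtttggttcaatt
Hist3h2a: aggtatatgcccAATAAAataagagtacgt
Hist1h1c: gtgtatgcttctAATAAAaagcgtttagtt
Hist2h2be: gttattattattAATAAAgttaccgattag
Hist1h4i: ggttctgtttacATTAAAagtattctatgc

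RefSeq promoters (GRCm38.p6, 250 bases before to 50 bases after the start) were found for 53 members. Searched on both strands, CCAAT stood in 45 of the 53 (84.9%) and in 37.4% of all 32851 promoters. It was in every promoter of the H1, H2A, H2B and H3 members and in 3 of 11 of the H4 members. TATAA stood in 42 (79.2%, all promoters 24.9%) and the octamer ATTTGCAT in 11 (20.8%, all promoters 1.74%), of which 6 were H2A and 5 were H2B. The letters AAACACA stood in 4 of the 5 H1 promoters and in 7.18% of all promoters. The promoters of the member with the highest mean in H1, in H2A and in H4 are printed for the 200 bases before the start, with matches to these motifs on either strand in capitals.
Hist1h1e, chr13:23622559-23622758, minus strand: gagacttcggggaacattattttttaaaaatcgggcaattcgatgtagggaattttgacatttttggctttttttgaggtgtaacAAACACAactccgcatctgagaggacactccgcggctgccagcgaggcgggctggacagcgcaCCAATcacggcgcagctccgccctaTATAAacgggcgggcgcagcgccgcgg
Hist3h2a, chr11:58954485-58954684, plus strand: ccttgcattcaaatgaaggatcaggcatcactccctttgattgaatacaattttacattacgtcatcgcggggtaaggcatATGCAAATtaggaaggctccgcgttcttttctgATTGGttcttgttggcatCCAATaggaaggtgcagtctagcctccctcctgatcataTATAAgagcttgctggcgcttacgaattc
Hist1h4i, chr13:22041363-22041562, minus strand: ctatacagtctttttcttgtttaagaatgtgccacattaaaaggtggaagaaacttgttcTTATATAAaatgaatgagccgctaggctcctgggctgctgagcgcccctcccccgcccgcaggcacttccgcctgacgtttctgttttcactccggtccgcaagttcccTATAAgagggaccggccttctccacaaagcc

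Several core histone members encode the same protein. The 12 H4 members encode 1 protein of 103 residues, the 11 H3 members 2 proteins, the 15 coding H2A members 7, the 16 coding H2B members 12 and the 5 H1 members 5. At the RNA level, 58 members shared at least 1 stretch of 50 bases with another gene, and in 28 members over 50% of such stretches were shared. A read from a shared stretch cannot be assigned to 1 gene, so the levels of these members are uncertain. Sharing differed by class: it was at most 32.0% in the H1 members (*Hist1h1e*) and reached 93.9% in the H3 member *Hist1h3h*. *Hist1h1a*, *Hist1h1b* and *Hist2h2be* shared none. *Hist1h1e* overlaps *Hist1h2be* and *Gm11398* on the same strand, and *Hist3h2a* overlaps *Trim17*, so their reads are uncertain to that degree. Reads were counted by strand.

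Linker histone genes had the largest share of the members' reads in cortex and 12-hour culture, and H1 and H2B sums were close in 24-hour control cultures. In this 3′ assay a primed transcript gives about 1 read whatever its length, so normalized read counts were compared without division by length. Transcripts without a tail or an internal run of A are not primed. The ranks of members and classes are therefore those of primed RNA and may differ from those of all histone mRNA. Shared sequence, at most 32.0% in H1 members and up to 93.9% in H3 members, also makes these ranks uncertain. Its part in the differences between classes was not tested. *Hist1h1e*, a linker histone gene (chromosome 13, 23620629 to 23622558), had the highest mean at 2838, with a range of 1120 to 4790 over the 24 libraries. It was followed by the H2B gene *Hist3h2ba* (chromosome 11, 58948920 to 58949533; mean 1182, range 446 to 1917) and the H2A gene *Hist3h2a* (chromosome 11, 58954685 to 58956830; mean 612, range 285 to 935). *Hist1h1b* and *Hist1h1c*, both linker histone genes, had means of 468 and 441. The highest H4 member was *Hist1h4i* at 199 and the highest H3 member *Hist1h3d* at 106.

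*Hist1h1e* alone held 23.3% to 42.2% of the counts of all members. The H1 class took a median of 56.0% of the members' counts at E11.5, 42.7% at E14.5, 49.1% in 12-hour and 35.7% in 24-hour cultures. H2B took 12.0%, 22.9%, 20.1% and 29.3% in the same order, and H3 3.30%, 2.04%, 3.04% and 4.22%. In the 24-hour controls alone the mean sum was 1637 for H1 and 1672 for H2B. The median mean over members was 441 for H1, 33.1 for H2A, 16.4 for H2B, 9.52 for H3 and 16.6 for H4. The 4 core histones enter each spool in equal numbers, and these poly(A)-primed counts were not equal between their classes.

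**Figure D1:**
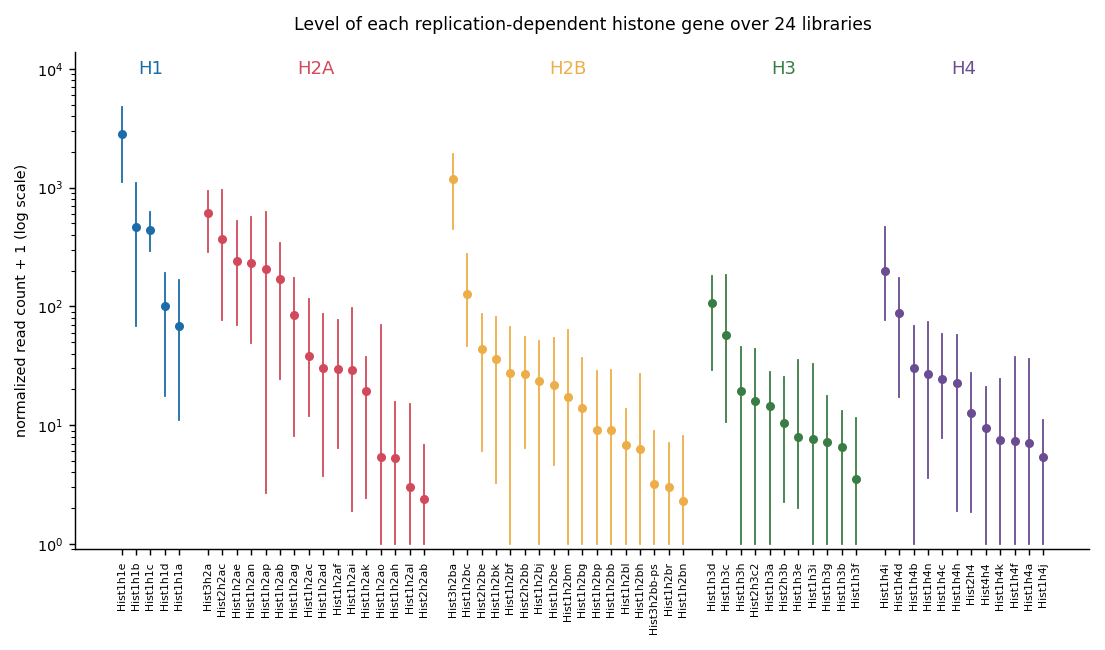
Normalized read count plus 1 of each of the 61 members on a log axis, by histone class, with points for the mean of the 24 libraries and lines from the lowest to the highest library. A few members of each class carried most of its reads, and *Hist1h1e* stood highest at 2838.

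The first comparison asked how these genes differ between E11.5, when dorsal progenitors mostly divide to expand, and E14.5, when many neurons are being made. Most members that changed were lower at E14.5, all 5 linker histone genes among them, while both highest non-linker members, *Hist3h2a* and *Hist3h2ba*, were higher. By limma on log2(normalized read count + 1), with genotype as a term and Benjamini-Hochberg adjustment over all genes at 0.05, 22 members were lower (36.1%; 21.1% of all genes tested were) and 4 were higher (6.56%; 18.6% of all genes). The median log2 difference was -0.49 over the members and -0.03 over all genes.

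*Hist3h2a*, an H2A gene, had a normalized read count of 406, 339.5 and 333 in the E11.5 controls and 285, 346 and 286 in the E11.5 mutants. At E14.5 it had 745, 935 and 809 in controls and 726, 715 and 615 in mutants. All 6 E14.5 cortices lay above all 6 E11.5 cortices. It rose by 1.18 on the log2 scale (SE 0.09, adjusted p = 2.22e-08 by limma), and the call was kept in every alternative run.

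*Hist3h2ba*, its neighbour on chromosome 11 and an H2B gene, had 820.3, 779 and 1097 in E11.5 controls and 446, 1029.5 and 735 in E11.5 mutants. At E14.5 the counts were 1752, 1917 and 1642 in controls and 1398, 1769.8 and 1268 in mutants. The ages did not overlap. It rose by 1.03 (SE 0.16, adjusted p = 5.05e-05 by limma).

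The other H2B and H3 genes called higher were expressed at lower levels. *Hist1h2bc*, an H2B gene with 2 exons, went from a lowest, median and highest count of 45.8, 54.2 and 62.0 over the 6 E11.5 cortices to 53.1, 81.4 and 102 at E14.5, and the ages overlapped. It rose by 0.55 (SE 0.16, adjusted p = 0.00926 by limma). *Hist2h3c2*, an H3 gene at 0.645 to 12.3 at E11.5 and 7.73 to 15.3 at E14.5, rose by 1.24 (SE 0.41, adjusted p = 0.0235 by limma), a call lost without E14.5 mutant 1 (adjusted p = 0.0541 by limma) and in a fit of all 24 libraries (0.149).

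Among the lower members, *Hist1h3d*, an H3 gene, showed the clearest separation. Its counts were 125, 161 and 127 in E11.5 controls and 142, 172 and 118 in E11.5 mutants. At E14.5 they were 28.2, 33.4 and 56.7 in controls and 41.8, 40.8 and 36.8 in mutants. No E14.5 cortex reached the lowest E11.5 cortex, and the gene fell by 1.82 on the log2 scale (SE 0.17, adjusted p = 1.8e-07 by limma).

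*Hist1h4i*, an H4 gene, had 407, 310.3 and 465 in E11.5 controls and 401, 397 and 415 in mutants. At E14.5 it had 115, 189 and 180.5 in controls and 135, 178 and 209 in mutants. The ages again did not overlap, and it fell by 1.26 (SE 0.14, adjusted p = 1.47e-06 by limma).

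All 5 linker histone genes fell. *Hist1h1b* had 976, 665 and 887 in E11.5 controls, 1102, 957 and 1091 in E11.5 mutants, 471, 473 and 364 in E14.5 controls and 589, 736 and 508 in E14.5 mutants. It fell by 0.87 (SE 0.11, adjusted p = 1.1e-05 by limma), and E14.5 mutant 2 reached into the E11.5 range. *Hist1h1e* had 3962, 3349 and 4790 in E11.5 controls, 4443, 4399 and 4750 in E11.5 mutants, 2234, 2245 and 2144 in E14.5 controls and 3448, 3371 and 2802 in E14.5 mutants. Within each genotype its ages did not overlap, and it fell by 0.68 (SE 0.10, adjusted p = 3.82e-05 by limma). *Hist1h1a* had 124, 136 and 167 as lowest, median and highest count at E11.5 and 56.7, 78.3 and 105 at E14.5, without overlap, and fell by 0.82 (SE 0.12, adjusted p = 4.42e-05 by limma).

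The remaining linker histone genes changed less. *Hist1h1d* fell by 0.59 (adjusted p = 0.00307 by limma), a call lost in a fit of all 24 libraries, and *Hist1h1c*, whose transcript has a polyadenylation signal at its end, by 0.35 (adjusted p = 0.0101 by limma). Of the other highest members of their class, *Hist2h2ac* fell by 0.66 (SE 0.22, adjusted p = 0.0252 by limma), with 210 to 949 at E11.5 and 242 to 644 at E14.5, *Hist1h3c* by 0.81 (SE 0.21, adjusted p = 0.00473 by limma), with 53.5 to 182 and 40.1 to 80.2, and *Hist1h4d* by 0.49 (SE 0.16, adjusted p = 0.0240 by limma), with 102 to 173 and 71.8 to 143. The ranges of these 3 genes overlapped between ages and all 3 calls were lost in a fit of all 24 libraries. The *Hist2h2ac* call was also lost without E11.5 control 2 or 3, E11.5 mutant 2, E14.5 control 4 or E14.5 mutant 6 (adjusted p from 0.0522 to 0.0627 by limma), and the *Hist1h4d* call without E11.5 control 2, E11.5 mutant 3, E14.5 control 3 or E14.5 mutant 6 (from 0.0514 to 0.0657).

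**Figure D2:**
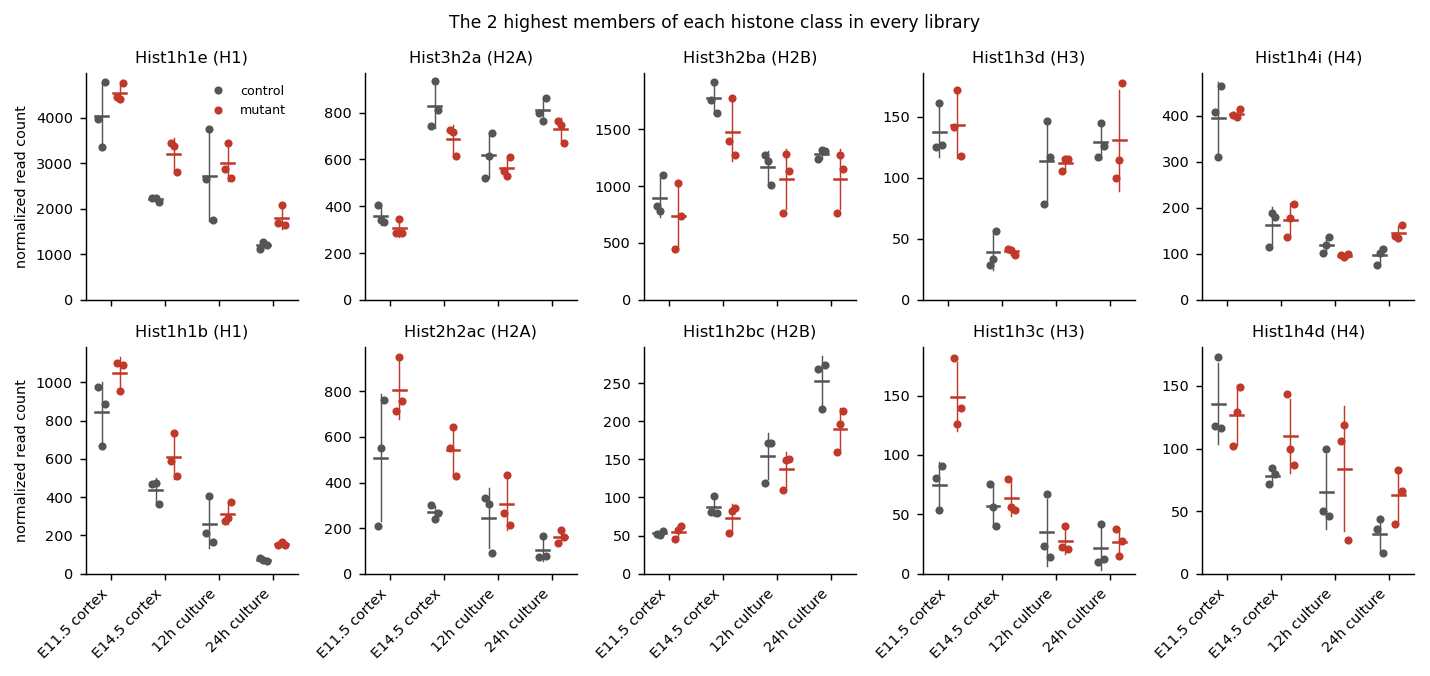
Normalized read count of leading members in the 24 libraries, by state and genotype, with points for libraries, bars for the mean of 3 and lines for the SD. *Hist3h2a* lay at 285 to 406 in E11.5 cortex and 615 to 935 in E14.5 cortex, while *Hist1h1e* lay at 3349 to 4790 and 2144 to 3448.

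By class, 5 of 5 H1, 5 of 16 H2A, 4 of 17 H2B, 5 of 11 H3 and 3 of 12 H4 members were lower, and 1 H2A, 2 H2B and 1 H3 member were higher. The median log2 difference was -0.68 for H1, -0.24 for H2A, -0.48 for H2B, -0.66 for H3 and -0.53 for H4. The summed counts of a class need not follow its members: the H2B sum was 1223 ± 246 (SD, n = 6) at E11.5 and 1960 ± 248 (SD, n = 6) at E14.5, a fold of 1.62 between geometric means, on which all folds of class sums are given, without overlap, and *Hist3h2ba* made up a mean of 1624 of the E14.5 sum. Only 3 of 17 H2B members had a positive difference. The sums of H3 (means 359 and 181, fold 0.506) and H4 (means 703 and 393, fold 0.554) did not overlap between ages either, and those of H1 (fold 0.627) and H2A (fold 0.927) overlapped.

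Grouped by the annotated end, the 14 members with a polyadenylation signal had a median log2 difference of -0.19 (2 higher, 2 lower), the 32 with a 3′ UTR but no signal -0.59 (2 higher, 17 lower) and the 13 without a 3′ UTR -0.56 (0 higher, 3 lower). The share of the members' counts on genes with the signal had a median of 23.6% in E11.5 cortex, 39.7% in E14.5 cortex, 32.6% in 12-hour cultures and 48.8% in 24-hour cultures. The share on members with a 3′ UTR but no signal was 62.0%, 49.1%, 58.9% and 45.5% in the same order, and that on members without a 3′ UTR 14.7%, 9.89%, 7.85% and 4.75%. *Hist3h2ba* and *Hist3h2a* are the leading members of the first group, *Hist1h1e* of the second and *Hist1h1b* of the third. No test of the difference between these groups of genes was made.

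**Figure D3:**
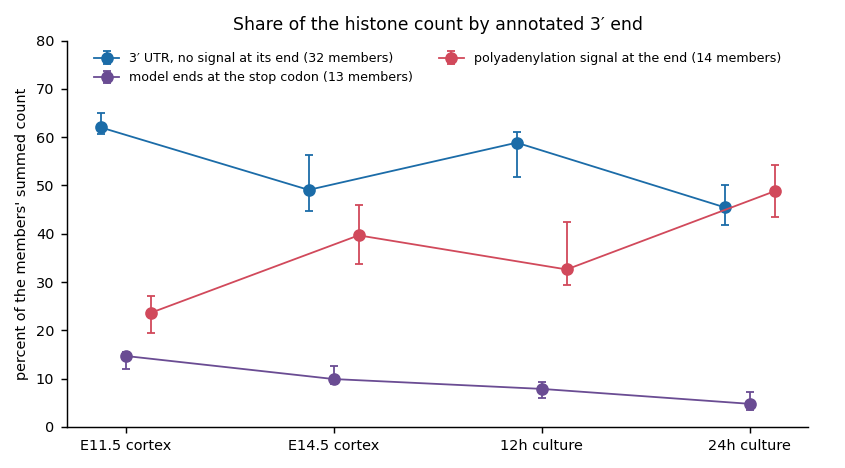
Percent of the members' normalized read count that fell on members grouped by their annotated 3′ end, in 4 states, with the median and range of 6 libraries. Members with a polyadenylation signal had a median of 23.6% in E11.5 cortex and 48.8% in 24-hour cultures.

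The direction of the age difference was examined in each genotype. In controls alone 13 members were called (3 higher, 10 lower) where 24.1% of all genes were, and in mutants alone 11 (2 higher, 9 lower) where 25.9% of all genes were. The median over members was -0.52 in controls and -0.42 in mutants. With age, the neuron markers moved too: 8 of 8 were higher at E14.5, with a median of 2.13. The part of cell composition in the histone differences was not tested.

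The next comparison set cells of E14.5 cortex cultured for 12 hours against E14.5 cortex of the same embryos. Most members that changed were lower in culture, and the 4 that were higher came 1 each from the 4 classes of core histone. By limma with genotype as a term, 13 members were lower (21.3%; 14.1% of all genes tested) and 4 higher (6.56%; 9.48% of all genes). The median log2 difference was -0.61 over members and -0.12 over all genes. In other scalings of the libraries the split was 7 higher and 11 lower with quantile normalization (11% and 11.8% of all genes) and 7 higher and 13 lower by DESeq2 (11.6% and 13.3% of all genes). Quantile normalization moved the median over all genes to 0.02.

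*Hist1h3d*, which had fallen between ages, was higher in culture. It had 78.7, 147 and 117 in control cultures and 105, 116 and 116 in mutant cultures, all above the 28.2 to 56.7 of the 6 E14.5 cortices. It rose by 1.5 (SE 0.22, adjusted p = 0.000107 by limma). *Hist1h2ac*, an H2A gene, had 12.1, 18.7 and 21.9 as lowest, median and highest count in cortex and 37.6, 64.2 and 115 in culture. It rose by 1.81 (SE 0.31, adjusted p = 0.000412 by limma) without overlap.

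*Hist1h2bc* rose as well. Its counts in culture were 120, 171 and 172 in controls and 110, 149 and 150.5 in mutants, above the 53.1 to 102 of the cortices, with a difference of 0.85 (SE 0.18, adjusted p = 0.00252 by limma). *Hist1h4a*, an H4 gene near the limit of detection, had 0 to 4.70 in cortex and 4.72 to 35.2 in culture, and rose by 2.29 (SE 0.63, adjusted p = 0.0138 by limma). Those ranges nearly touched, and its counts rest on few reads.

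Linker histone genes *Hist1h1a* and *Hist1h1b* and both chromosome 11 genes fell. *Hist1h1a* had 26.7, 21.1 and 35.7 in control and 26.3, 22.1 and 60.9 in mutant cultures, against 56.7 to 105 in cortex, and only mutant 6 reached into the cortical range. It fell by 1.37 (SE 0.27, adjusted p = 0.00130 by limma). *Hist1h1b* had 211, 404 and 168 in control and 275, 293 and 375 in mutant cultures, against 364 to 736 in cortex. It fell by 0.89 (SE 0.18, adjusted p = 0.00137 by limma), with overlap.

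*Hist3h2ba* went from a lowest, median and highest count of 1268, 1697 and 1917 in cortex to 767, 1179 and 1280 in culture. It fell by 0.55 (SE 0.12, adjusted p = 0.00387 by limma), with a narrow overlap. *Hist3h2a*, at 615, 735 and 935 in cortex and 522, 582 and 712 in culture, fell by 0.36 (SE 0.11, adjusted p = 0.0208 by limma), a call lost without the E14.5 cortex of control 4 (adjusted p = 0.0604 by limma). *Hist2h2be*, an H2B gene with a long 3′ UTR, fell by 1.26 (SE 0.29, adjusted p = 0.00448 by limma), from 37.3, 56.2 and 84.7 in cortex to 16.4, 23.8 and 31.9 in culture, without overlap. *Hist1h1e* was called in neither direction, with 1763 to 3743 in culture.

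By class, 2 of 5 H1, 4 of 16 H2A, 3 of 17 H2B, 2 of 11 H3 and 2 of 12 H4 members were lower. The medians were -0.19 for H1, -0.69 for H2A, -0.88 for H2B, -0.43 for H3 and 0.58 for H4. H4 was the only class with a positive median, and 7 of its 12 members had a positive difference. The H4 sum did not follow, with means of 393 in cortex and 352 in culture (fold 0.886). The folds of the sums were 0.943 for H1, 0.685 for H2A, 0.742 for H2B and 1.24 for H3. Each class sum overlapped between cortex and culture. The age and culture comparisons share the E14.5 cortices, so their calls are given side by side and not as independent evidence. Lower in both were 7 members: *Hist1h1a*, *Hist1h1b*, *Hist1h2ag*, *Hist1h2an*, *Hist1h3c*, *Hist1h4b* and *Hist1h4i*. *Hist3h2a* and *Hist3h2ba* were higher at E14.5 and lower in culture, *Hist1h3d* the reverse, and *Hist1h2bc* was higher in both. The *Hist1h3c* culture call (fell by 1.07, SE 0.34, adjusted p = 0.0315 by limma) was lost by edgeR, with quantile normalization and without any of 7 single libraries: control 3, control 5 and mutant 1 in culture, and controls 3 and 4 and mutants 1 and 2 in cortex (adjusted p from 0.0532 to 0.0792).

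**Figure D4:**
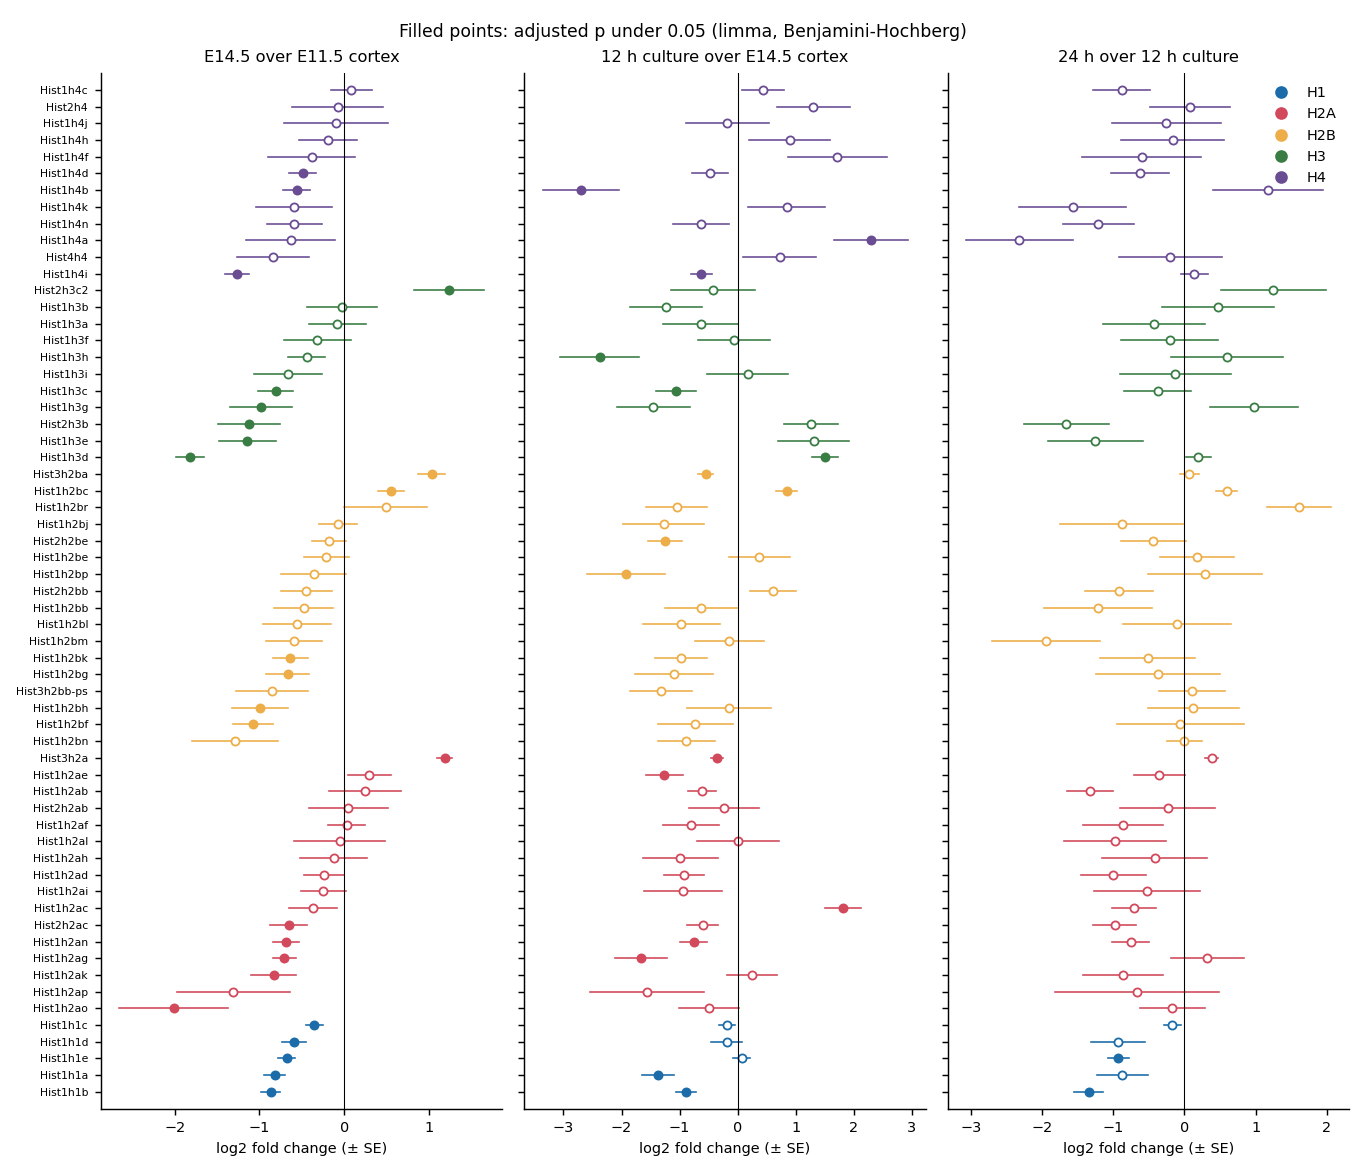
Log2 difference of the 61 members, coloured by class, for E14.5 over E11.5 cortex, 12-hour culture over E14.5 cortex and 24-hour over 12-hour culture, with lines for the SE and filled points where the adjusted p (limma) was under 0.05. *Hist3h2a* and *Hist3h2ba* lay above 0 for age (1.18 and 1.03) and below 0 for culture (fell by 0.36 and 0.55), and *Hist1h3d* lay on the opposite sides.

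Cells other than neural progenitors differed between tissue and culture. All 5 endothelial markers (median -4.46) and all 5 microglial markers (median -4.57) were lower in culture and 6 of 7 erythroid genes were higher. Neuron markers remained in culture. Their sum was 30467.8 to 42846.5 in 12-hour controls and 39061.5 to 40981.3 in E14.5 control cortex, and 25505 to 35421.7 and 29664.5 to 32072.3 in mutants. The part of all these cells in the histone differences was not tested. The *Gm42418* share in the 12-hour cultures was 10.7% to 34.8% in controls and 18.9% to 32.7% in mutants, against 9.78% to 15.0% in the E14.5 cortices.

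Between 12 and 24 hours of culture the linker histone genes with the highest means, *Hist1h1e* and *Hist1h1b*, fell. They were the only members called by limma (2 lower, 3.28%; 0.0397% of all genes were lower and 0.0596% higher, with 0 members higher). The median over members was -0.38, against 0.04 over all genes, and 17 members had an unadjusted p under 0.05 (27.9%; 8.76% of all genes).

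*Hist1h1b* had 80.6, 74.1 and 67.5 in the control and 153, 165 and 153 in the mutant 24-hour cultures. All lay below the 168 to 404 of the 12-hour cultures, and it fell by 1.34 (SE 0.20, adjusted p = 0.0186 by limma). *Hist1h1e* had 1120, 1266 and 1203 in control and 1685, 2092 and 1642 in mutant 24-hour cultures, against 2651, 3743 and 1763 in control and 2881, 3449 and 2678 in mutant 12-hour cultures. It fell by 0.93 (SE 0.15, adjusted p = 0.0334 by limma), and only control 5 at 12 hours reached into the 24-hour range.

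Both calls depended on which single library was left out. Both passed without 12-hour control 4 or 5 and without 24-hour mutant 2. Without 12-hour control 3, any 24-hour control, or 24-hour mutant 1 or 6, neither passed, and without any single 12-hour mutant only 1 gene of the pair did. The adjusted p (limma) of the lost *Hist1h1b* calls was 0.0524 to 0.0925 and of the lost *Hist1h1e* calls 0.0539 to 0.132, while the log2 differences kept to -1.28 to -1.38 and -0.88 to -0.96. By DESeq2, 6 members were called (0.735% of all genes), with *Hist1h2bc* (0.58) and *Hist3h2a* (0.37) higher and *Hist1h1b*, *Hist1h1e*, *Hist1h2ab* (-1.37) and *Hist2h2ac* (-1.07) lower. By edgeR, 3 were called (0.233% of all genes), the third being *Hist1h2ab*.

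The study was built to compare mutants with controls, and this was done in each state. No member passed the adjusted threshold by limma in any state. The median difference over members lay above that over all genes in each state and was lowest at 12 hours. In E11.5 cortex 45 of 61 members had a positive difference (median 0.26, all genes 0.01), in E14.5 cortex 48 (median 0.45, all genes 0.02), in 12-hour cultures 37 (median 0.10, all genes -0.03) and in 24-hour cultures 40 (median 0.38, all genes -0.01). Members of a family share sequence and libraries and are not independent, so no test was made of these counts. The share of all genes with a positive difference was not taken.

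The number of members called by limma was 0 in each state, where 0% of all genes were called in E11.5 cortex, 0.00496% in E14.5 cortex, 0% after 12 hours and 0% after 24 hours. An unadjusted p under 0.05 was reached by 7 of the 61 members at E11.5 (7.01% of all genes), 13 in E14.5 cortex (7.58%), 2 after 12 hours (5.09%) and 9 after 24 hours (9.29%). The smallest adjusted p of a member by limma was 0.669, 0.318, 0.871 and 0.227 in the same order.

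Every mutant lay above every control for 11 members at E11.5 (18.0%; 6.07% of all genes), 16 at E14.5 (26.2%; 6.43%), 2 in 12-hour (3.28%; 4.13%) and 8 in 24-hour cultures (13.1%; 6.32%). Every mutant lay below every control for 0 members at E11.5 (6.1% of all genes), 1 at E14.5 (5.78%), 3 in 12-hour (5.35%) and 3 in 24-hour cultures (7.53%).

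The count models called a few members. By DESeq2, 1 member was called at E11.5 (0.169% of all genes), 2 at E14.5 (0.308%), 0 in 12-hour (0.0447%) and 2 in 24-hour cultures (0.784%). By edgeR, 0 were called in E11.5 cortex (0.0248%), 0 in E14.5 cortex (0.0496%), 0 in 12-hour (0.0298%) and 2 in 24-hour cultures (0.581%). All these members were higher in mutants.

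At E11.5 the member called by DESeq2 was *Hist1h3c*, an H3 gene, with 80.6, 53.5 and 90.9 in controls and 182, 126 and 139 in mutants. The genotypes did not overlap. The log2 difference was 1.0 (SE 0.24, adjusted p = 0.669) by limma and 0.99 (adjusted p = 0.0347) by DESeq2.

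At E14.5 *Hist2h2ac*, an H2A gene, had 300.0, 242 and 266 in controls and 550, 644 and 428 in mutants. Its log2 difference was 0.99 (SE 0.17, adjusted p = 0.318) by limma and 0.99 (adjusted p = 0.000210) by DESeq2. *Hist1h1e* had 2234, 2245 and 2144 in controls and 3448, 3371 and 2802 in mutants, a log2 difference of 0.53 (SE 0.12, adjusted p = 0.545) by limma and 0.52 (adjusted p = 0.0386) by DESeq2. For both genes the lowest mutant was embryo 6 and lay above the highest control. *Hist1h1c* had 359, 389 and 347 in controls and 591, 606 and 433 in mutants (0.56, SE 0.15, adjusted p = 0.618 by limma), and was called by none of the 3 tools.

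In 24-hour cultures *Hist1h1b* had 80.6, 74.1 and 67.5 in controls and 153, 165 and 153 in mutants. The log2 difference was 1.07 (SE 0.13, adjusted p = 0.227) by limma, 1.10 (adjusted p = 0.00749) by DESeq2 and 1.10 (adjusted p = 0.0197) by edgeR. In a limma fit of all 24 libraries it passed (1.07, adjusted p = 0.0309). *Hist1h1e*, at 1120, 1266 and 1203 in controls and 1685, 2092 and 1642 in mutants, differed by 0.59 (SE 0.12, adjusted p = 0.291) by limma, 0.61 (adjusted p = 0.00302) by DESeq2 and 0.62 (adjusted p = 0.0227) by edgeR. No mutant library overlapped a control for either gene.

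In 12-hour cultures these genes overlapped between genotypes. *Hist1h1e* had 2651, 3743 and 1763 in controls and 2881, 3449 and 2678 in mutants, and *Hist1h1b* 211, 404 and 168 in controls and 275, 293 and 375 in mutants. Control 4 was the highest library for both genes and control 5 the lowest. The one 12-hour call, for *Hist1h2bh* in the fit of all 24 libraries (-3.15, adjusted p = 0.0389 by limma), belonged to an H2B gene at low counts.

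By class, the H1 sum at E14.5 was 3153 ± 157 (SD, n = 3) in controls and 4584 ± 555 (SD, n = 3) in mutants, a fold between geometric means of 1.45 with no overlap. At 24 hours it was 1637 ± 61.5 (SD, n = 3) and 2429 ± 307 (SD, n = 3), a fold of 1.48 with no overlap. The folds at E11.5 (1.16) and 12 hours (1.15) came with overlap. The H4 sum did not overlap at E14.5 (fold 1.30) or 24 hours (fold 1.51; 190 to 231 against 313 to 330), and the H2A sum not at E11.5 (1.23), E14.5 (1.31) or 24 hours (1.08). At 24 hours the H2A ranges nearly touched, with 1367.7 in the highest control and 1368.62 in the lowest mutant. The H3 sum did not overlap at E11.5 (fold 1.37). The H2B sum overlapped in all 4 states, with folds of 0.917, 0.881, 0.942 and 0.813.

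The medians of the log2 difference over the members of each class at E14.5 were 0.56 for H1, 0.56 for H2A, 0.38 for H2B, 0.19 for H3 and 0.38 for H4. At 24 hours they were 0.36 for H1, 0.50 for H2A, 0.53 for H3 and 0.48 for H4, while H2B stood at -0.22 with 5 of 17 members positive. All 5 H1 members were positive at E11.5, E14.5 and 12 hours, and 4 of 5 at 24 hours.

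**Figure D5:**
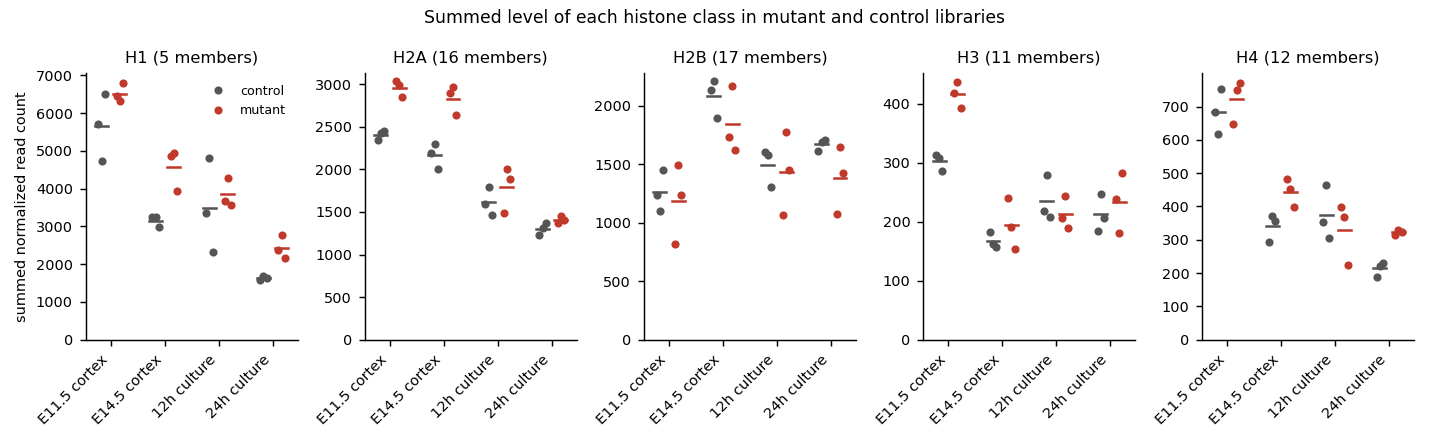
Summed normalized read count of each histone class in the 24 libraries, by state and genotype, with points for libraries and bars for the mean of 3. The H1 sums of the E14.5 mutants (3945 to 4945) and 24-hour mutants (2155 to 2761) lay above those of the controls (2972 to 3249 and 1576 to 1699), and the H2B sums overlapped in every state.

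Libraries differed within a genotype. Against the mean of the 3 controls, the median over members was 0.69, 0.56 and 0.21 in E14.5 mutants 1, 2 and 6. Each E14.5 control against the other controls gave 0.26, 0.02 and -0.23, so mutant 6 lay within the range of the controls. At E11.5 the mutants stood at 0.09, 0.32 and 0.44 and the controls at 0.12, -0.07 and -0.09, and 1 mutant lay within the range of the controls. In 12-hour cultures the mutants stood at 0.18, 0.40 and -0.27 and the controls at 0, 0.36 and -0.44, and 2 mutants lay within that range. At 24 hours the mutants stood at 0.50, 0.20 and 0.35 and the controls at -0.07, 0 and 0.14, without overlap. The 24-hour mutants had 7903426 to 11645213 reads and a *Gm42418* share of 20.5% to 23.0%, the controls 4732781 to 5709443 reads and a share of 6.26% to 13.9%. The part of depth, sex and *Gm42418* in these differences was not tested.

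Whether the genotype difference itself differed between states was tested by interaction terms in limma. None of the 61 members passed for stage, for 12-hour culture against cortex, or for 24 against 12 hours, where 0% of all genes passed in each, and edgeR and DESeq2 called 0 members as well. An unadjusted p under 0.05 was reached by 2 members for stage (7.32% of all genes), 2 for 12-hour culture (5.24%) and 3 for culture time (3.23%). The genotype differences seen in E14.5 cortex and 24-hour culture and not at 12 hours were thus not shown to differ between states.

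Genes that make or handle histone mRNA and protein were described from fixed lists. Of all genes tested, 21.1% were lower and 18.6% higher at E14.5 than at E11.5. Between ages, 10 of 14 genes of histone mRNA biogenesis were lower and 1 higher (median -0.31). *Slbp*, which binds the stem-loop, fell by 0.76 (adjusted p = 2.9e-06 by limma), and *Npat*, the coactivator of histone genes at S phase, by 0.35 (adjusted p = 0.0038 by limma). *Lsm11*, a part of the U7 particle that cuts histone pre-mRNA, rose by 0.59 (adjusted p = 0.00012 by limma).

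All 15 S phase genes were lower at E14.5 (median -1.12). *Rrm2*, a subunit of the enzyme that makes deoxynucleotides, fell by 2.05 and *Mcm2*, part of the replicative helicase, by 1.29. Of 8 histone chaperones 5 were lower (median -0.99), among them *Chaf1a*, which places H3 and H4 on new DNA and fell by 1.14. Of 11 histone genes that are expressed outside S phase 7 were lower and 1 higher (median -0.35), with *H2afz* falling by 0.86 and *H2afj* rising by 0.39, while *H3f3b* was not called (0.17). The members' median of -0.49 lay between the medians of the S phase and biogenesis lists.

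In 12-hour cultures against cortex 6 of 15 S phase genes were lower and 1, *E2f1*, was higher (median -0.37). Of the histone genes expressed outside S phase 8 of 11 were lower (median -0.59), of the biogenesis genes 3 of 14 were lower and 1 higher, and of the chaperones 1 of 8 was lower. Beside these counts, 14.1% of all genes tested were lower and 9.48% higher. From 12 to 24 hours and between genotypes, no gene of these 4 lists was called by limma. Of the 15 S phase genes, 14, 12, 10 and 14 had a positive difference in mutants of the 4 states, from E11.5 cortex to 24-hour culture (medians 0.19, 0.30, 0.10 and 0.38).

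Cell type markers were given for the genotype comparison too. In the same order of states 0, 0, 1 and 0 of the 8 neuron markers had a positive difference, and none was called by limma. Liver genes were positive in 7 of 7 at E11.5 and in 0 of 7 at E14.5, and in 7 of 7 at 12 and at 24 hours. Their sums were uneven between libraries. The lowest, median and highest sum at 12 hours was 1.57, 969 and 1349 in controls and 193, 477 and 886 in mutants. At E14.5 it was 10.6, 932 and 962 in controls and 6.26, 6.62 and 13.5 in mutants. Sums did not overlap at E11.5 (controls to 14.2, mutants from 15.6) or 24 hours (controls to 6.83, mutants from 111). The part of cell composition in the histone values was not tested.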

How the data were processed

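Libraries were prepared with the QuantSeq 3′ FWD kit by oligo(dT) priming, which marks strand. Per the labels and the study's methods, reads were aligned to GRCm38 with TopHat2 2.0.10 and Bowtie 1.0.0, allowing 3 mismatches and 20 multihits, and counted per gene by strand with HTSeq 0.6.1 on GENCODE vM20, with SAMtools 0.1.19 and FastQC 0.11.7. The authors deposited 1 table of signal: the count of each gene divided by 1 size factor per library (normalized read count), with replicates kept apart. Dividing by the value of 1 read gave whole reads (within 0.01) for 100% of values in each library, and the count tests were run on these.

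All genes whose mean over the 24 libraries was 1 or more were tested with limma 3.58.1 (R 4.3.3) with an intensity trend on log2(normalized read count + 1), which understates changes of low genes, with Benjamini-Hochberg adjustment and a two-sided threshold of 0.05. Age and culture comparisons held genotype as a term, and interactions were fitted without a block. Groups held 3 samples, 1 per embryo. Same-embryo libraries come from 1 animal by their labels, and their deviations correlated with r of -0.114 to 0.235 over 18 pairs (median 0.137, 12 over 0.1). Alternatives were edgeR 4.0.16, DESeq2 1.42.0, a mean of at least 10, a pseudocount of 5, quantile normalization, rescaling without *Gm42418* and mitochondrial genes, all 24 libraries in 1 fit, a replicate block, a block by name prefix, a term for sex and leaving out each library. The code was tested on simulated data.

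Gene models came from GENCODE vM21 and promoters from RefSeq. Values in every library were given for the 2 members with the highest mean in each class and for up to 4 higher and 4 lower members with the smallest p per comparison, and other members only where a count or tool singled them out. The members and lists were chosen with earlier results of these data known. Depth was 4732781 to 11645213 reads per library, and counting error weighs most on members with a mean under 10. Summaries and plots used Python 3.11.15, numpy 2.4.6, pandas 2.3.3 and matplotlib 3.10.9.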

Additional observations from a re-analysis of the deposited data

How the results depend on the processing

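Of 25 calls of the named members by age and culture, 17 held under every alternative run. Over 473 alternatives of these calls, 434 kept the call, 39 lost it and 0 reversed. The number of members called between genotypes was 0 by limma and became 1 at E11.5, 2 at E14.5 and 2 at 24 hours by DESeq2, 2 at 24 hours by edgeR, and 1 at 12 hours and 1 at 24 hours with all 24 libraries in 1 fit. That fit called 12 members by age against 26. From 12 to 24 hours DESeq2 called 6 members against 2, and leaving out 1 library gave 0 to 2. Without 1 library the counts for age were 22 to 27, for 12-hour culture 14 to 22, and for genotype and interactions 0.

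With the embryo as a replicate block, 19 members were called at 12 hours, 2 from 12 to 24 hours and 0 for both interactions with culture, and no call of a named member was lost. A sex term and a block by the name prefix in the titles were run at E11.5 only, where 0 members were called.

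Over all genes, calls between genotypes at 24 hours were 0 by limma against 36 with a mean of at least 10, 117 by edgeR and 158 by DESeq2. At E14.5 they were 1 against 62 by DESeq2, at E11.5 0 against 34 by DESeq2, and at 12 hours 0 against 53 in the fit of all 24 libraries. From 12 to 24 hours they were 20 against 47 by edgeR and 148 by DESeq2. Of 444 alternatives of class sums 1 moved past the spread between replicates, H2A at 24 hours under rescaling. The cause was not tested.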

Other observations

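The count of *Hist1h2ap*, an H2A gene chosen here after its values were seen, varied more between embryos of a group than between groups. In its transcript 93.1% of the stretches of 50 bases were shared with other genes and only 30 were its own. The transcript also holds a run of 12 A. The part of shared sequence and of internal priming in these counts was not tested. In E14.5 cortex it had a normalized read count of 236, 279 and 136 in controls 3, 4 and 5 and 11.3, 91.6 and 626 in mutants 1, 2 and 6. In 12-hour cultures the counts were 23.6, 5.87 and 303 in the same controls and 28.3, 11.6 and 514 in the same mutants. In 24-hour cultures they were 131, 1.69 and 67.5 in controls and 22.9, 10.1 and 91.7 in mutants. Mutant embryo 6 held the highest count of its genotype in all 3 states, while control embryo 4 was the highest of the controls in cortex and the lowest in both cultures.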
